A study of Mus musculus with 10 samples.

Results

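The Syde2 AsiSI hotspot is the window chr3:145980000-145999999 (mm10), and its members are all translocation junctions whose prey side lies in it. It held 72 of the 68433 junctions in 10 libraries, of which 34 came from the DRB with AsiSI library and 38 from the AsiSI library, and the other 8 libraries held 0. The window was chosen by these counts, so they are given as a description with no test. The libraries come from Abelson-transformed pre-B cells of C57BL/6 background that lack DNA ligase IV (LIG4-/-), and high-throughput genome-wide translocation sequencing (HTGTS) joined unknown prey breaks to a bait break on chromosome 6.

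In all 10 libraries, per the labels, cells were held in G1 with imatinib for 48 h, and doxycycline at 1 µg/ml, given from 24 h of imatinib, induced the zinc finger nuclease (ZFN) that cuts the bait. For the DRB with AsiSI library (1 library), cells were exposed for 2 h to DRB, an inhibitor of transcription elongation that was kept on afterwards, and AsiSI was induced with doxycycline and, 20 h later, tamoxifen at 1 µM. The AsiSI library (1 library) had the same induction without DRB. DRB with etoposide, IFN with etoposide (1 library each) and etoposide (2 libraries) had 50 µM etoposide, a poison of DNA topoisomerase II, for 2.5 h and then 12 h of culture. DRB and IFN alone (1 library each) and untreated cells (2 libraries) had no etoposide. The protocol gives tamoxifen only for the induction of AsiSI, and IFN stands in the labels only as an abbreviation. The 8 libraries therefore differ from the AsiSI libraries in tamoxifen as well as in the enzyme.

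AsiSI is a restriction enzyme with a long, rare recognition sequence, and it leaves ends with a short 3′ overhang at known letters. A cut of known position lets the bases lost from each DNA end be counted before that end is joined to the bait. DNA ligase IV seals breaks in classical end joining, so cells without it join ends by alternative routes, which often use a few matching bases. HTGTS reads DNA joints and does not measure expression of Syde2.

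Rebuilt from bases that the deposited alignments match to mm10, the window held 1 place whose read letters fit the AsiSI sequence GCGATCGC. It lies at chr3:145989047-145989054, with 6 of its 8 letters read and none in conflict. No alignment of the window read the bases at 145989049 and 145989050, the middle of the site, so these are printed as n. Such a place was found once among the 2159 positions of the window that could be read. AsiSI cuts after the fifth base of its site on each strand, which puts the last base of the left end at 145989051 and the outermost base of the right end at 145989050. Syde2 spans 145987405 to 146021720 in the RefSeq gene table of GRCm38.p6, so the cut lies 1646 bases inside the gene. It lies 1181 bases from the RNA start of RefSeq's promoter entry for the gene, at 145987870. Exon and intron borders were not used here. The 300-base promoter window of Syde2 does not hold the 8 letters, which are the same on both strands and occur in 73 of 32851 RefSeq promoter windows (0.222%).

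The plus strand around the cut is shown because every loss below is counted on it, with the site in capitals (chr3:145989007-145989094, mm10). The joints found in both AsiSI libraries follow, each with the bait to the left and Syde2 to the right and with capitals for the bases that the bait and prey alignments share. Syde2 reads on its minus strand in joint 1 and on its plus strand in joints 2 and 3.
Syde2 site: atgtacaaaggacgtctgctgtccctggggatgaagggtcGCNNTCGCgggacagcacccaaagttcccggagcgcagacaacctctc
joint 1, DRB with AsiSI: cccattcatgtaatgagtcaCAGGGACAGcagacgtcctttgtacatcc
joint 1, AsiSI: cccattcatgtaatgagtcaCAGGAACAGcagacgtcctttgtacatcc
joint 2: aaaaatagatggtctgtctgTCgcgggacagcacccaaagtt
joint 3: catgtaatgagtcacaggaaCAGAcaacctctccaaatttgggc

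The libraries held 2044 to 13425 junctions each, and prey junctions, those over 1 Mb from the bait break, numbered 463 to 10521. In the DRB with AsiSI library Syde2 took 34 of 2919 prey junctions, or 1.16% (95% Clopper-Pearson interval 0.808 to 1.62). In the AsiSI library it took 38 of 2231, or 1.70% (1.21 to 2.33). Intervals here cover counting error only, since PCR reads without molecular identifiers are not independent molecules. The share was -0.538 percentage points apart between the DRB with AsiSI and AsiSI libraries, and the intervals overlapped. Since these counts chose the window, no test of this difference is given. With 1 library in each group, each later test between them compares the libraries and not the conditions, and there is no replicate check. Outside the antigen receptor loci, Syde2 took 2.90% of 1173 prey junctions with DRB and 4.08% of 932 without it. Among windows of 20 kb outside those loci it ranked 1 in each. It held 34 junctions against 21 in the next window of the DRB with AsiSI library and 38 against 18 in the AsiSI library. Those next windows are not among the 5 named below, whose rule also allowed at most 1 junction in the other 8 libraries.

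Taking 3 counts over the prey of a library as the most that a count of 0 allows, the share could be up to 0.648% of prey in the DRB with etoposide library and 0.0828% in the IFN with etoposide library. For etoposide replicates 1 and 2 that limit was 0.0285% and 0.0806%, for DRB 0.613%, for IFN 0.463%, and for untreated replicates 1 and 2 it was 0.328% and 0.284%. These zeros are among the counts that chose the window. Both AsiSI libraries came from 1 sequencing run that held none of the other 8, so run and enzyme cannot be told apart. Within that run their reads began with different barcodes.

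Most junctions sat near the site and faced away from it. Of all 72, 60 (83.3%) lay within 1 kb of the cut, 26 of 34 (76.5%) in the DRB with AsiSI library and 34 of 38 (89.5%) in the AsiSI library. A prey that runs rightward from the right of the cut, or leftward from its left, has the direction of an end of the break joined to the bait. Such outward junctions were 22 of 34 with DRB and 33 of 38 without it. Those within 100 bases of the cut numbered 20 with DRB, 5 on the left end and 15 on the right, and 29 without it, 11 on the left and 18 on the right.

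**Figure D1:**
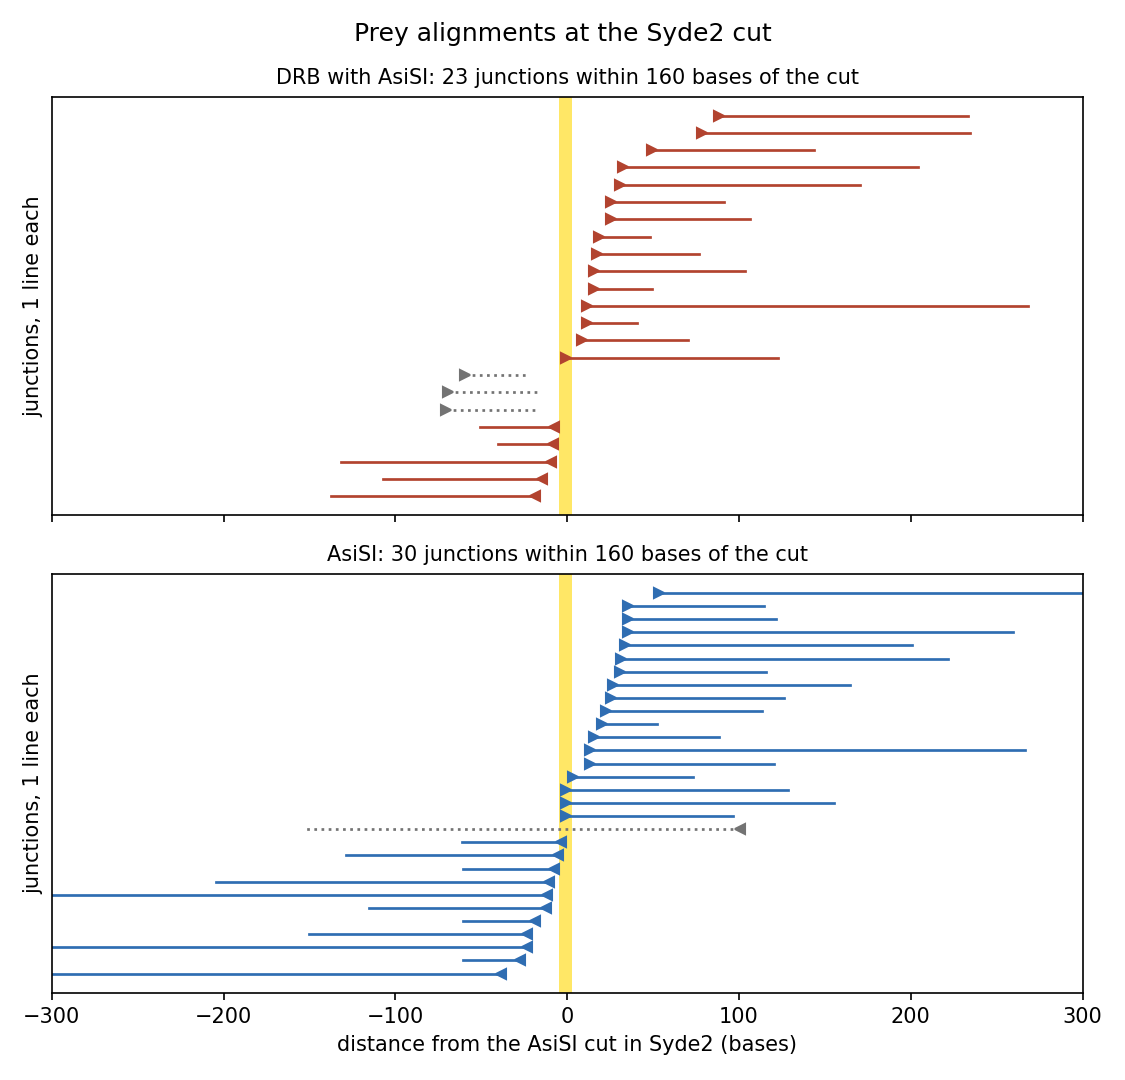
Prey alignments within 160 bases of the AsiSI cut, 1 line per junction, with DRB with AsiSI above and AsiSI below; the x axis is the distance from the cut in bases, arrowheads mark the junction and its direction, solid coloured lines run away from the cut, dotted grey lines run toward it, and the yellow band is the site. Of 23 junctions shown with DRB, 20 run outward and 3 toward the cut, and of 30 without it 29 run outward and 1 runs toward and across the site.

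Loss here is the distance from the cut end to the first aligned Syde2 base of an outward junction. Shared bases are counted as Syde2, so a loss is the least that the read allows. Whether outward junctions far from the cut began at it was not tested. Counted so, the right end had lost a median of 23.5 bases in the 16 outward junctions of the DRB with AsiSI library. The lowest loss was 1 and the highest 4075 (95% interval of the median 13 to 51). In the 19 of the AsiSI library the median was 27 bases, with a lowest of 1 and a highest of 549 (15 to 37). The left end had lost a median of 11.5 bases in the 6 outward junctions with DRB, from 7 to 1568, a range that is also the 95% interval. In the 14 without DRB it had lost a median of 20.5, from 3 to 3598 (7 to 790). The ranges of the libraries overlapped at both ends. Over both libraries the median loss was 16 bases on the left (n = 20, 9 to 27) and 27 on the right (n = 35, 17 to 33).

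**Figure D2:**
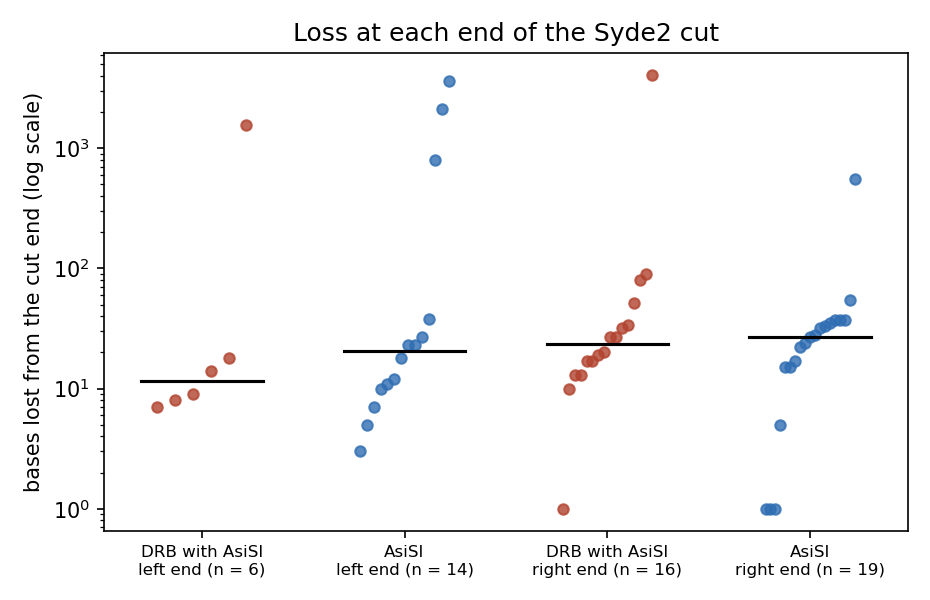
Bases counted as lost from each end of the Syde2 cut, on a log axis, with 1 point per outward junction and a black line at each median. Points far from the cut are counted by direction only. Medians are 11.5 bases (DRB with AsiSI) and 20.5 bases (AsiSI) on the left end, and 23.5 bases (DRB with AsiSI) and 27 bases (AsiSI) on the right end.

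Most losses were short. No more than 40 bases were gone in 16 of 20 outward left ends and in 29 of 35 outward right ends. The shortest loss was 1 base, on the right end at 145989051, in 1 junction with DRB and 3 without it. Of these 4, 3 share 2 bases with the bait, so their loss could be larger. On the left end the shortest was 3 bases, in the AsiSI library, and no left outward junction kept any base of the overhang. Outward junctions beyond 1 kb were 1 left and 1 right in the DRB with AsiSI library, and 2 left and 0 right in the AsiSI library. Junctions toward the cut beyond 1 kb were 4 left and 2 right with DRB, and 0 left and 2 right without it. The outward junction at 145993125 lay beside a junction toward the cut at 145993115, both with DRB. Whether the outward junctions beyond 1 kb came from the AsiSI cut was not tested.

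The other 17 junctions ran toward the cut, which is not the direction of an AsiSI end joined directly to the bait. The DRB with AsiSI library held 12 of them, 9 on the left at 59 to 5144 bases and 3 on the right at 1000 to 4065 bases. The AsiSI library held 5, all on the right at 102 to 8160 bases, and 0 on the left. This difference was noticed after the values were seen, and it was not tested. It is part of the strand split: rightward junctions made up 25 of 34 (73.5%, 55.6 to 87.1) with DRB and 19 of 38 (50.0%, 33.4 to 66.6) without it. That is a difference of 23.5 percentage points (odds ratio 2.78, 95% interval 1.03 to 7.49; Fisher's exact test, two-sided, p = 0.0540, adjusted p = 0.270 over 10 tests), which did not pass the threshold of 0.05.

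For 3 of the 9 left junctions toward the cut, the read went on after Syde2 into the bait chromosome beyond the break. All 9 came from the DRB with AsiSI library. In the AsiSI library, the read of the right junction toward the cut at 145989498 ended in 14 bases that match chr6:41554734-41554747, not beyond the break. Where those 14 bases came from was not tested. The 3 left junctions are described because each holds a short piece of Syde2 between parts of chromosome 6. The first was aligned from 145988226 over 123 bases to 145988348, but only its first 25 bases match without a break, to 145988250. Of the rest, 52 bases are marked as not read and 7 are mismatches. Its read ended in 203 bases that match chr6:41554990-41555192. Another ran 53 bases, chr3:145988981-145989033, ending 18 bases left of the cut, and was followed by 25 bases of chr6:41555052-41555076. The last was aligned over 55 bases, chr3:145988982-145989036, of which the first 45 match without a mismatch to 145989026. The 46 bases of the read after that point match chr6:41554991-41555036, so the last bases of this alignment also match the bait chromosome. These last pieces begin 1 base apart and have different bait ends, 41554914 and 41554971. They are printed below on the plus strand, with capitals for the bases that match Syde2 without a mismatch and bait chromosome on both sides. The first 3 capitals of the piece of 53 bases and the first 7 of the piece of 55 also belong to the bait alignment.
piece of 53 bases: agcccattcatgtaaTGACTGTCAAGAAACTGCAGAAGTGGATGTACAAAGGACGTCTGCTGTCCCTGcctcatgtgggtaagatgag
piece of 55 bases: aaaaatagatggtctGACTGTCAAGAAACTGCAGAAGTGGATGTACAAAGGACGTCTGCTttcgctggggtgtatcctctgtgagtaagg

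A single read crossed the site, in the AsiSI library. Its junction was at 145989152 on the minus strand, 102 bases right of the cut, and its 254 prey bases ran leftward to 145988899. It lacked 13 bases, chr3:145989042-145989054, which take in the whole site. It is shown on the plus strand from 145989017 to 145989079, with the missing bases on the line after it. No read of either AsiSI library held the intact 8 letters at Syde2. Since only that 1 read spanned the site, this does not measure how often the site stayed intact.
read across the site: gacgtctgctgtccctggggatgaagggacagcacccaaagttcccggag
missing bases: gggtcgcnntcgc

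Joins recurred at the same base, as placed by the alignments. In all, 10 positions were used more than once, 3 on the left end and 7 on the right, and they carried 25 of the 72 junctions. Junctions from both libraries were found at 6 of them, with 16 junctions. The most used was 145989051, the base next to the outermost base of the right end, with 1 junction in the DRB with AsiSI library and 3 in the AsiSI library. The other positions with junctions from both were 145989033 and 145989044 on the left (1 and 1 each), 145989067 and 145989077 on the right (2 and 1 each), and 145989082 on the right (1 and 1). At 145989033 the read without DRB carries a bait letter within its overlap. Its Syde2 part may thus begin farther from the cut than in the read with DRB. Positions 145989063 (2 and 0), 145989028 (0 and 2), 145989065 (0 and 2) and 145989087 (0 and 3) were repeated within 1 library, DRB with AsiSI given first.

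At 3 of the shared positions the bait end was the same too, which makes the joints printed above. Joint 1 joined 145989033 to chromosome 6 at 41554927 over 9 aligned bases. The bait and Syde2 differ there at 1 base, and the read with DRB carries the Syde2 letters whereas the read without DRB carries the bait letters. These reads thus share both alignment ends but differ in the joint itself. Joint 2 joined 145989051 to 41554971 over 2 shared bases, in 1 read with DRB and 2 without, of which 1 lacks a base of the bait shown. Joint 3 joined 145989082 to 41554928 over 4 shared bases, in 1 read of each library. No reads of the hotspot had both the same joint and the same far end. The prey part of joint 1 ran 120 bases with DRB and 43 without, that of joint 2 ran 124 with DRB and 98 and 157 without, and that of joint 3 ran 141 with DRB and 86 without. Counted by alignment ends alone, which takes in joint 1, joints found in both libraries made up 3 of 34 at Syde2 with DRB (8.82%). Without DRB they made up 3 of 37 (8.11%). For other prey outside the antigen receptor loci they were 23 of 1137 with DRB (2.02%) and 23 of 893 without (2.58%). For prey in those loci they were 62 of 1743 with DRB (3.56%) and 62 of 1297 without (4.78%). These shares were not tested against each other.

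Short stretches of matching bases were usual at the joins, and no test separated Syde2 from other prey in this. In both libraries the median was 2 shared bases. Inserts of unaligned bases were found in 6 joins with DRB and 6 without, and 2 and 4 joins were blunt. Exactly 2 shared bases were found in 10 joins with DRB (29.4%) and 12 without (31.6%), against 16.3% and 18.6% of other prey in these libraries, a class singled out after the values were seen and not tested. The longest overlaps were 9 bases with DRB and 15 without. Of 54 joins with an overlap, 5 held a mismatch in it, 2 of 26 with DRB and 3 of 28 without, and none of these was among overlaps of 2 bases or fewer.

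At least 2 shared bases were found in 20 of 34 joins with DRB (58.8%) and 24 of 38 without (63.2%), a difference of -4.33 percentage points (odds ratio 0.833, 0.323 to 2.15; Fisher's exact test, p = 0.810, adjusted p = 1). Against other prey outside the antigen receptor loci, the difference was -0.702 points with DRB (678 of 1139; odds ratio 0.971, 0.486 to 1.94) and 1.08 points without (555 of 894; odds ratio 1.05, 0.534 to 2.05). An insert was found in 17.6% of Syde2 joins with DRB and 15.8% without, a difference of 1.86 points (odds ratio 1.14, 0.331 to 3.95; Fisher's exact test, p = 1, adjusted p = 1). Other prey had an insert in 20.5% of 1139 joins with DRB and 19.6% of 894 without, giving differences of -2.90 (odds ratio 0.829, 0.339 to 2.02) and -3.79 points (0.770, 0.317 to 1.87). None of these tests passed, which does not show that the shares are alike.

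**Figure D3:**
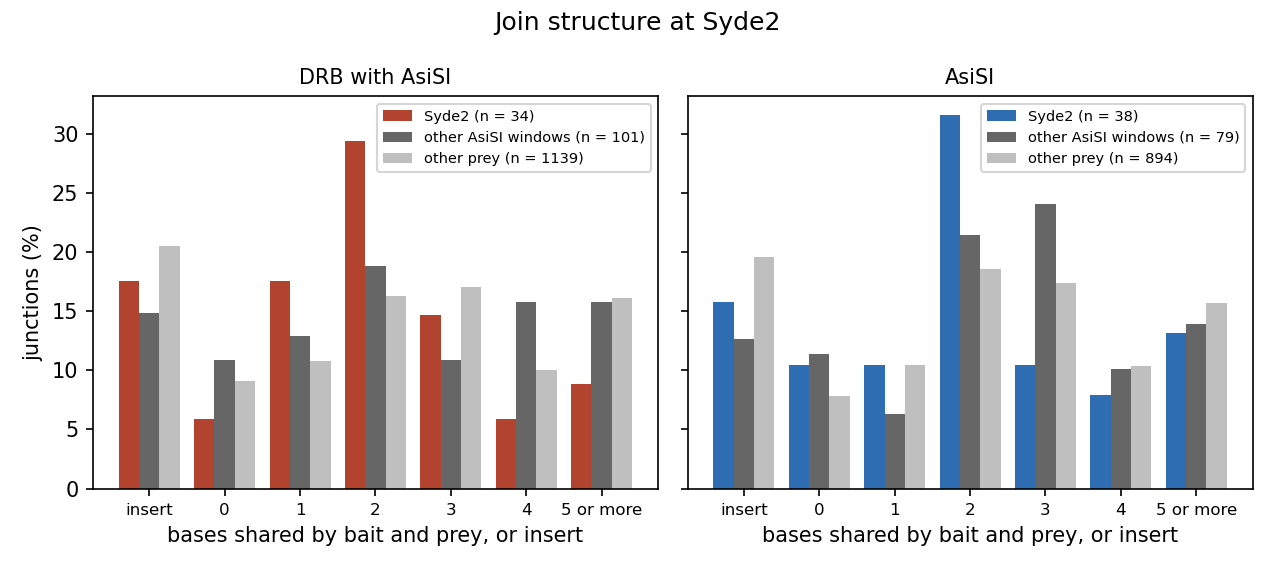
Share of joins (y axis, %) by the number of bases that bait and prey share, or with an insert, at Syde2, in the other 2-kb AsiSI windows and in other prey outside the antigen receptor loci, for DRB with AsiSI at left and AsiSI at right. The tallest bar is Syde2 at 2 shared bases in both panels, 29.4% with DRB and 31.6% without. The AsiSI windows are 31 windows of 2 kb, Syde2 included, chosen by counts of at least 4 junctions. They are another set than the named 20-kb windows.

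Most inserts were short, 1 to 4 bases in 5 of 6 with DRB and 4 of 6 without. The 3 longer ones are printed because their letters can be set against both partners, with the insert in capitals between 20 bases of bait and 20 of Syde2.
DRB with AsiSI, 19 bases: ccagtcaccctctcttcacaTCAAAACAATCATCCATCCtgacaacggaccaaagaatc
AsiSI, 21 bases: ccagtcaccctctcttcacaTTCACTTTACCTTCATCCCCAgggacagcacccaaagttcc
AsiSI, 26 bases: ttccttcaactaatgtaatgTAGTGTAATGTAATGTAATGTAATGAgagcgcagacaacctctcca

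The insert of 21 bases, at 145989055, holds stretches that match both partners. Its bases 1 to 10 match the minus strand of chr6:41555024-41555033, and its bases 10 to 21 match the minus strand of chr3:145989032-145989043, on the other side of the Syde2 cut. The insert of 26 bases, at 145989077, holds the unit tgtaa 4 times in a row, a unit that occurs 1 time in the last 20 bait bases before it, and 11 of its bases match the bait at chr6:41554885-41554895. For the insert of 19 bases, at 145989140, the longest matches were 10 bases to the minus strand of the bait chromosome, at chr6:41556343-41556352, and 7 to Syde2. Where the inserted bases came from was not tested, and matches this short within an insert are descriptions. The joins of 19 and 21 bases have the same bait end, 41554862.

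The letters beside the cut hold an inverted repeat of 9 bases. The copy tgctgtccc lies at chr3:145989023-145989031 and its reverse complement gggacagca at chr3:145989055-145989063, with 23 bases between them that take in the site. Their inner ends lie 20 and 5 bases from the cut. Joint 1 and the insert of 21 bases both end in or beside a copy. After that insert the read goes on with gggacagca, which fits either copy. The minus-strand match of insert bases 10 to 21 therefore runs on without a break to 145989023. These are descriptions of position and letters, and the source of the insert was not tested.

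Bait ends at the Syde2 joins lay between 41554862 and 41554975 on chromosome 6, with medians of 41554952.5 with DRB and 41554935 without. The most frequent bait end over all junctions was 41554958 with DRB and 41554961 without. A bait more than 10 bases short of it was found in 12 of 34 Syde2 joins with DRB (35.3%), against 616 of 1139 other prey (54.1%), a difference of -18.8 percentage points (odds ratio 0.463, 0.227 to 0.945; Fisher's exact test, p = 0.0359, adjusted p = 0.270). Without DRB it was found in 26 of 38 (68.4%), against 546 of 894 (61.1%), a difference of 7.35 points (odds ratio 1.38, 0.688 to 2.77; Fisher's exact test, p = 0.400, adjusted p = 0.999). Neither passed after adjustment, and the difference between the libraries in this measure was not tested.

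Other windows were picked by a rule that sets a like pattern across the 10 libraries, so that pattern is a description and not a result. Their counts were lower than that of Syde2. Of 20-kb windows outside the antigen receptor loci, 16 besides Syde2 had at least 2 junctions in each AsiSI library and at most 1 in the other 8, and the 5 with the most are named here by the gene at or nearest their median junction. Likeness here is the count in each of the 10 libraries. Pcgf1, a Polycomb group protein whose gene lies on the bait chromosome, had 16 junctions with DRB and 12 without, and 1 in etoposide replicate 1. Rcor1, a corepressor subunit, had 8 and 8, and Mex3a, an RNA-binding protein, had 7 and 9, with 0 in the other 8 for both. Romo1, a mitochondrial membrane protein, had 5 and 6 with 0 in the other 8, and Klf7, a zinc finger transcription factor, had 7 and 3 with 1 in IFN with etoposide. The interval of the Syde2 share lay above those of all 5 in the AsiSI library. In the DRB with AsiSI library it lay above all but Pcgf1, whose interval of 0.314% to 0.889% overlaps 0.808% to 1.62%. The order rests on the counts that chose the windows and was not tested.

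**Figure D4:**
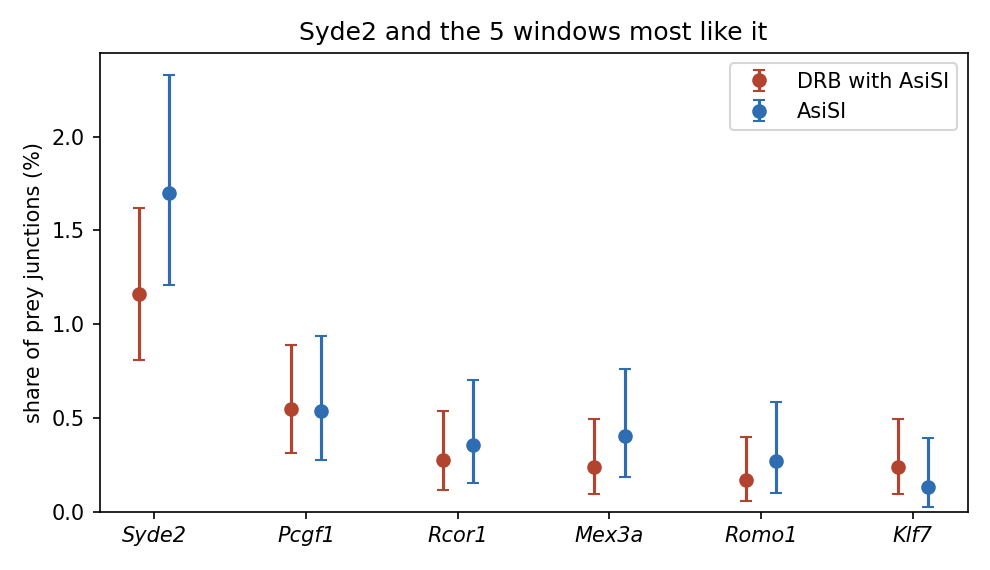
Share of prey junctions (y axis, %) at Syde2 and at the 5 windows most like it, with DRB with AsiSI left of AsiSI in each pair; points are 1 library each and bars are 95% Clopper-Pearson intervals, which cover counting error only. Syde2 stands at 1.16% and 1.70%, and Pcgf1, the highest of the 5, at 0.548% and 0.538%.

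AsiSI letters could be placed at 3 of these 5 windows. The site was read in full at chr6:83078413-83078420 in Pcgf1, whose median junction was 83078410. In the RefSeq promoter windows of Romo1 and Klf7 it starts at 156144260 on chromosome 2 and 64121475 on chromosome 1, against median junctions of 156144271 and 64121451. Most junctions of each window lay close together. Within 500 bases of the median lay 55 of 72 at Syde2, 25 of 28 at Pcgf1, 15 of 16 at Rcor1, 12 of 16 at Mex3a, 9 of 11 at Romo1 and 10 of 10 at Klf7.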

How the data were processed

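Each row of the files deposited by the authors is 1 junction, per the file headers, with its mm10 position, strand, read and bait and prey alignments as plain position numbers (another unit than a count or level), and hold no normalization. The labels' protocols name the standard LAM-HTGTS pipeline on Illumina MiSeq, and the submitters' processing notes name bedtools, mm10 and GRCm38.p2; the versions of the aligner and filters are not given in the sources used here. All 10 files were used. The window, gene lists and tests were chosen with earlier results of these data known.

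A junction counted as prey beyond 1 Mb of the bait cut. Runs of 10 or more immunoglobulin or T-cell receptor segments, spaced by up to 1 Mb, made the antigen receptor loci. Shared bases or inserts are the overlap or gap of bait and prey in the read. Loss was counted from the outermost base of each AsiSI end to the first aligned prey base, shared bases included. The letters of mm10 were rebuilt from matched bases of the reads, since no genome was used. Windows named beside Syde2 were the 5 with the most junctions over both AsiSI libraries, among 20-kb windows with at least 2 in each and at most 1 in the other 8. Fisher's exact tests were two-sided and adjusted by Benjamini-Hochberg over 10 tests, 1 of which, on the share of prey, is not given because its counts chose the window; odds ratio intervals are normal approximations on the log scale. Gene and promoter positions came from RefSeq GRCm38.p6. Python 3.11.15, pandas 2.3.3, scipy 1.17.1 and statsmodels 0.14.6 were used, and side and loss were tested on simulated reads. Alternatives were other denominators, each position counted once, a 1-kb window, other prey sets and other base limits. Nothing in the labels says whether numbered libraries came from separate cultures.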

Additional observations from a re-analysis of the deposited data

How the results depend on the processing

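Of 24 alternatives to 9 tested results, 14 kept their direction and their side of the threshold, and no test passed an adjusted p of 0.05 under any, with adjusted p from 0.21 to 1 by Fisher's exact test. The share of prey, given without a test, kept its direction in 5 of 5 alternatives. The 8 alternatives to the median losses kept them within the 95% interval of the median. For the left end with DRB that interval is the whole range, 7 to 1568, so its alternatives could not leave it. The left interval without DRB, 7 to 790, is also wide. The sign turned in the other 10 tested alternatives, all on join structure and none passing a test, and the cause was not tested. With each position counted once per library, the difference between DRB with AsiSI and AsiSI turned to -2.62 percentage points for inserts and 1.92 for at least 2 shared bases. Against other prey, that count gave 1.58 points for shared bases with DRB and -2.74 without. Against the other AsiSI windows of 2 kb, chosen by counts of at least 4 junctions, inserts gave 2.80 points with DRB and 3.13 without. Shared bases gave -6.46 against them without DRB. With DRB, shared bases gave 3.84 points against prey off the bait chromosome and 6.15 with at least 1 base. With at least 3 bases, the difference without DRB turned to -11.9 points. At that limit the difference with DRB was -13.8 points (29.4% against 43.2%), which kept its sign. Syde2 thus had the lower share in both libraries at that limit, and neither test passed. No paired analysis was possible because each AsiSI group has 1 library and the numbered untreated and etoposide libraries held 0 junctions there; for the same reason no library could be left out. The 34 and 38 junctions limit the precision to the intervals given with each share.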
